A study of Rattus norvegicus with 15 samples.

Results

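Of the 11574 genes in the count table of rat H9c2 cells, 51 encode potassium, sodium, chloride or transient receptor potential (TRP) channels, their accessory subunits, or the related anoctamins, ATP-gated P2X channels, hyperpolarization-activated (HCN) channels and Piezo channels. They were taken by symbol alone, as every row whose name starts with Kcn, Scn, Clcn, Clic, Hcn, Trpc, Trpm, Trpv, Ano, P2rx or Piezo followed by the letter or number of a family member, a rule that uses no measured value, although the families were picked with earlier results of these data known. Trpc4ap, which matches by name, encodes a protein that associates with a TRPC channel and is not itself a channel. H9c2 is a myoblast line from embryonic rat heart, and the titles of all 15 libraries name it, with unedited (WT) cells throughout. The cell line entries of the labels carry a number after H9c that differs between most samples, and they were read as the same line. Cells were left to attach for 24 h, fetal bovine serum was then lowered from 10% to 1%, and all-trans retinoic acid (RA, 1 µM, dissolved in DMSO) was added daily to part of the flasks. The 5 groups, with 3 cultures each, were cells at day 0 (T0), cells kept in low serum without RA for 7 or 14 days (T7-RA, T14-RA), and cells kept with RA for 7 or 14 days (T7+RA, T14+RA). The sources used here do not say whether the cultures without RA received DMSO. On that reading a single cell line stands behind all groups, and the replicates describe the spread between cultures of that line.

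Ion channels are membrane proteins that let selected ions pass down their gradients, and the set a muscle cell makes fixes its resting potential and its excitability. Potassium channels hold or restore the resting potential, voltage-gated sodium channels carry the upstroke of the action potential, ClC proteins move chloride across the surface membrane or acidify endosomes and lysosomes, and TRP, P2X and Piezo channels admit cations, calcium and magnesium among them, in response to lipids, ATP or stretch. Myoblasts that fuse into myotubes are known to change their potassium conductances early, since hyperpolarization comes before fusion.

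The libraries held between 508397 and 1030820 counts each, and the channel genes together took between 0.197% and 0.242% of them. These genes were thinly counted, with a median of 6 to 14 counts per library. Their median sum over all 15 libraries was 150 counts against 358 for all genes, 13 of the 51 had at least 10 counts in every library, and 17 had a count of 0 in some library. The table holds only genes whose counts summed to more than 20, and 5 channel genes, Kcnip4, Clic2, Kcnj4, Scn4a and Kcnk13, would not have passed without the group in which they were highest. Channel genes that never reached that sum are not analysed here. As a check of the cell type, 10 of 12 skeletal muscle markers were in the table (Myf5 and Myf6 were not), and their summed level went from between 247 and 304 CPM (counts per 1000000 library counts, scaled with TMM factors) at T0 to between 11562 and 12162 at T14-RA and between 5053 and 5865 at T14+RA, with 9 of the 10 past an adjusted p of 0.001 upward at day 14 and 6 downward with RA. Of 11 cardiac markers 2 were in the table, with a sum of at most 38.4 CPM in any library, and Nkx2-5, Tbx5, Myh6, Tnni3, Myl2 and Ryr2 were among those that were not. All 6 smooth muscle markers were present, and their sum went from between 15642 and 17107 CPM at T0 to between 3531 and 3636 CPM at T14-RA. The sum of the 5 fibroblast markers in the table, out of 8 listed, lay between 23275 and 40872 CPM in all libraries, while Col3a1, Dcn and Lum rose and Col1a1 fell at day 14, and Dcn rose and Col3a1, Thy1 and Lum fell with RA. The part of these fibroblast markers in the results on channel genes was not tested. Further, 1 of 6 endothelial markers was present at up to 6.29 CPM, and none of the 8 neuronal and glial or 6 leukocyte markers was in the table. The RNA came from whole cultures, so fewer cells of a type and less RNA per cell cannot be told apart.

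Levels of different genes were compared as CPM per kilobase of the gene size listed in the table. On that scale Clic1 and Clic4, genes of intracellular chloride channel proteins, led, while their relatives Clic3 and Clic2 averaged 5.06 and 3.15. Clic1 averaged 161 and Clic4 119 CPM per kilobase over the 5 groups. Both are proteins that exist in soluble and membrane-inserted forms. Next among the channels came Piezo1, the stretch-gated cation channel, at 56.1, Ano6, a calcium-activated lipid scramblase and ion channel, at 36.6, Clcn7, the chloride/proton exchanger of lysosomes, at 26.5, Ano10, an anoctamin, at 23.9, and Trpm7, a magnesium-permeable channel fused to a kinase, at 20.9. Scn4a, the sodium channel of adult skeletal muscle, was the lowest of all 51 on this scale, with 21 counts in the 15 libraries together.

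**Figure D1:**
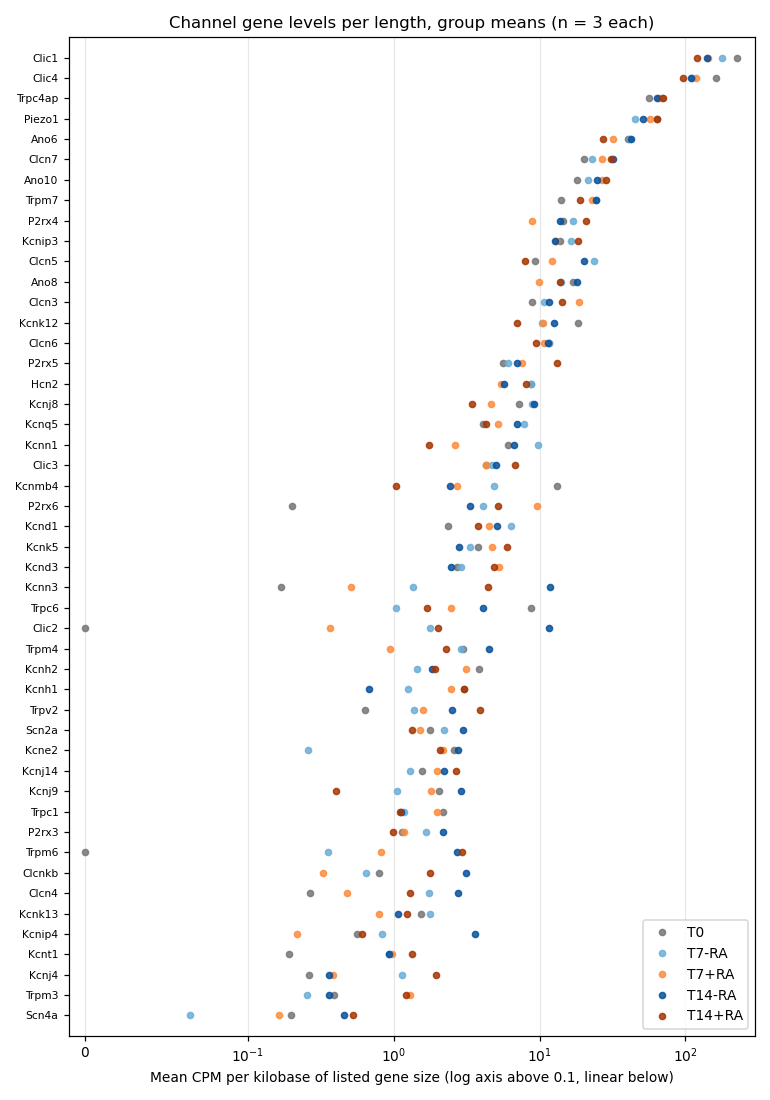
Mean level of 48 channel genes in each group, in CPM per kilobase of listed gene size, on an axis that is logarithmic above 0.1 and linear below. Each point is the mean of 3 cultures, genes are ordered by their mean over the 5 groups, and Clic1, Clic4, Trpc4ap and Piezo1 stand at the top while Clic2 and Trpm6 are at 0 in T0.

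The first question was which channel genes changed with time in low serum. The T0 cultures had no RA, so the day terms below stand for cultures without RA, with the RA change taken as equal at both days. In an additive model of day and RA, fitted with edgeR over all genes and adjusted by the Benjamini-Hochberg method, 4 of the 51 genes passed an adjusted p of 0.001 for day 7 against day 0, where 8.73% of all genes did, 4.29% upward and 4.44% downward. Clcn5, Trpm7 and P2rx6 rose and Trpc6 fell. For day 14 against day 0, 7 of 51 passed against 17.3% of all genes. Kcnn3, Trpm6, Clic2, Trpm7 and Clcn4 rose, where 8.47% of all genes did, and Clic1 and Clic4 fell, where 8.85% did. Scaled by library size only, which moved the median log2 change of all genes at day 14 from 0.05 to 0.15, the day 14 calls were 6 higher and 0 lower, and the calls of Clic1 and Clic4 were lost. From day 7 to day 14, 3 rose, Kcnn3 and Trpm6 among them, and 0 fell, 3 of 51 against 6.89% of all genes, of which 3.65% rose and 3.23% fell. At an unadjusted p under 0.05 in edgeR, 13 were higher and 3 lower over that week, where 26.6% of all genes passed in either direction. DESeq2 and limma-voom also called 0 that fell at 0.001. Over both directions, the shares of channel genes called were below those of all genes in each of these comparisons, and the genes were also counted less deeply than most. For calls upward alone the shares were not below. At day 14 that rests on Clic2, which passed the count filter only through T14-RA, so no contrast between directions is drawn from it. The median log2 change of the 51 was 0.10 at day 7, 0.28 at day 14 and 0.15 from day 7 to day 14, beside 0.02, 0.05 and 0.01 for all genes. The day 7 median was 0.04 without T0 replicate 2 and 0.18 without T7-RA replicate 2. That from day 7 to day 14 was 0.09 without T14-RA replicate 3, and -0.02 under edgeR's filterByExpr, which tests fewer of the genes. The median log2 level of the members itself had a pooled SD of 0.23 between libraries of a group. Both day terms share the T0 libraries, and without T0 replicate 1 the calls were 2 at day 7 and 4 at day 14, and 3 at day 14 without T0 replicate 2.

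Kcnn3 (ENSRNOG00000020706, 2q34) had the lowest p of the day 14 calls. It encodes SK3, a small-conductance potassium channel that opens on intracellular calcium and is known from embryonic and denervated skeletal muscle. Its counts were 1, 0 and 0 in the T0 libraries, 0, 5 and 3 at T7-RA and 2, 1 and 0 at T7+RA. At T14-RA they were 31, 20 and 14, a level of 37.2, 35.4 and 23.7 CPM, and at T14+RA 10, 3 and 12, a level of 9.65, 4.71 and 21.8 CPM. Thus every library of day 14 lay above every library of T0, and all 3 T14-RA libraries lay above all 3 T14+RA libraries. The level at T14-RA was 56.7 times that at T0, with a 95% counting interval of 9.83 to 2275 because the 3 T0 libraries held 1 count in all, and the fitted log2 change at day 14 was 5.41 (SE 0.76, adjusted p = 4.68e-08). From day 7 to day 14 the log2 change was 3.04 (SE 0.43, adjusted p = 1.08e-07). The RA term of Kcnn3 was -1.45 (SE 0.38, adjusted p = 0.00432), which passed 0.05 but not 0.001. The day 14 call was kept when any single library was left out, with adjusted p up to 2.03e-06, and without T0 replicate 1, which held the only T0 count, the fitted log2 change was 7.46. The call from day 7 to day 14 was lost in limma-voom (adjusted p = 0.00135).

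Trpm6 (ENSRNOG00000013053, 1q43) and Clic2 (ENSRNOG00000000728, 20p12) were both at 0 in all T0 libraries. Trpm6 encodes a magnesium-permeable TRP channel with its own kinase domain, a close relative of Trpm7. Its levels were 3.58, 0 and 2.90 CPM at T7-RA, 5.70, 4.03 and 5.14 at T7+RA, 12.01, 8.86 and 28.8 at T14-RA and 7.72, 20.4 and 25.4 at T14+RA. Both day 14 groups lay above T0 and overlapped each other, being at least 9.31-fold and at least 9.10-fold higher than a floor of 3 counts over the T0 group. The log2 change from day 7 to day 14 was 2.17 (SE 0.43, adjusted p = 0.000127), which limma-voom did not call (adjusted p = 0.0746). The fitted day 14 log2 change was 6.36 (SE 1.20, adjusted p = 2.07e-05), and limma-voom gave 3.91 (adjusted p = 0.00115), short of 0.001. Without T14-RA replicate 3 the adjusted p of the change from day 7 to day 14 was 0.00193.

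Clic2 encodes a chloride intracellular channel protein that binds ryanodine receptors. Its levels were 0, 4.03 and 2.90 CPM at T7-RA, 1.43, 0 and 0 at T7+RA, 10.8, 12.4 and 22.0 at T14-RA and 2.89, 3.14 and 1.81 at T14+RA. The T14-RA libraries stood above every other library, at least 8.44-fold above the T0 floor, and Clic2 was among the genes that passed the count filter only through T14-RA, which held 29 of its 41 counts. Its day 14 log2 change had adjusted p = 2.39e-05 and its RA term was -2.28 (SE 0.59, adjusted p = 0.00339). The summed skeletal muscle markers were also highest at T14-RA, as Kcnn3 was, and their part in these results was not tested.

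The 250 bases before the annotated start of Kcnn3 and Trpm6 are printed because these genes had the 2 lowest p values at day 14 among the channel genes with a listed window. They come from RefSeq (assembly GRCr8, whereas the counts were made on Rnor_6.0), both on the plus strand, 5′ to 3′, at chr2:177234090-177234339 for Kcnn3 and chr1:225559278-225559527 for the first of 3 listed starts of Trpm6. Capitals would mark CANNTG, the E-box sequence that myogenic factors such as MyoD bind, or AGGTCA, the hexamer from which many nuclear receptor sites are built, each read on both strands. CANNTG is present in 65.54% and AGGTCA in 14.06% of the 33469 windows of this length in the RefSeq table, and neither occurs in these windows, which says only that the letters are absent there. The other listed starts of Trpm6 hold 1 CANNTG each.
Kcnn3: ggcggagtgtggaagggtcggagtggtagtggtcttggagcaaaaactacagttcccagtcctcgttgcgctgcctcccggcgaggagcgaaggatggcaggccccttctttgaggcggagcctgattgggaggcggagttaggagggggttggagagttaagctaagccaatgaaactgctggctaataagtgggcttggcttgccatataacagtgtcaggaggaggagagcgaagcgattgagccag
Trpm6: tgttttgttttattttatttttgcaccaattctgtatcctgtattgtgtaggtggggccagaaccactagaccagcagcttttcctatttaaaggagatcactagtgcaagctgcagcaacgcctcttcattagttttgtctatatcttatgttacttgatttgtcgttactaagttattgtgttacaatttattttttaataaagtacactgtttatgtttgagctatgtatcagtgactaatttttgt

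Trpm7 (ENSRNOG00000057806, 3q36), deeply counted, made a smaller step. Its levels were 85.5, 71.3 and 77.6 CPM at T0, 132, 117 and 161 at T7-RA, 149.7, 110.1 and 123 at T7+RA, 135, 138 and 135 at T14-RA and 128, 75.4 and 116 at T14+RA. All groups except T14+RA lay wholly above T0. The log2 change was 0.84 (SE 0.17, adjusted p = 0.000121) at day 7 and 0.73 (SE 0.17, adjusted p = 0.000544) at day 14. Without T0 replicate 2 the day 7 adjusted p was 0.00105, and the day 14 call was lost in 7 of the 15 fits that left out 1 library (adjusted p up to 0.00326) and in DESeq2 and limma-voom.

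Clcn4 (ENSRNOG00000003533, Xq13), which encodes an endosomal chloride/proton exchanger, had 2 counts in all at T0. Its levels were 1.38, 0 and 2.10 CPM at T0, 5.96, 8.06 and 8.71 at T7-RA, 2.85, 0 and 3.43 at T7+RA, 13.2, 12.4 and 10.2 at T14-RA and 4.82, 4.71 and 7.25 at T14+RA. At both days the cultures without RA lay above those with RA, without overlap. The level at T14-RA was 10.5 times that at T0 (95% counting interval 2.60 to 91.4), the day 14 log2 change was 3.28 (SE 0.78, adjusted p = 0.000555), and the RA term was -1.37 (SE 0.44, adjusted p = 0.0251), short of 0.001. The day 14 call was lost without any 1 of the 3 T0 libraries or of T14-RA replicates 1 and 2 (adjusted p up to 0.00444), and in DESeq2 and limma-voom.

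P2rx6 (ENSRNOG00000001873, 11q23), a P2X subunit known from skeletal muscle, was called at day 7. Its counts were 1, 0 and 0 at T0, 7, 6 and 8 at T7-RA, 12, 16 and 16 at T7+RA, 9, 5 and 2 at T14-RA and 14, 7 and 6 at T14+RA. Every culture in low serum was above every T0 culture, and the T7+RA cultures were the highest. The level at T7-RA was 16.0 times (95% counting interval 2.58 to 663) and at T7+RA 37.6 times (6.41 to 1519) that at T0, where 1 count was seen, and the day 7 log2 change was 3.81 (SE 0.83, adjusted p = 0.000378). Without T0 replicate 1, which held the only T0 count, the fitted log2 change was 5.85. The call was lost without any 1 of the T0 libraries or T7-RA replicate 3 (adjusted p up to 0.00307) and in DESeq2 (0.0102) and limma-voom.

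Trpc6 (ENSRNOG00000006324, 8q11) encodes a cation channel opened by diacylglycerol, known from smooth muscle and heart. Its levels were 26.2, 24.4 and 27.3 CPM at T0, 3.58, 1.34 and 4.36 at T7-RA, 8.55, 6.71 and 6.86 at T7+RA, 12.01, 15.9 and 8.47 at T14-RA and 4.82, 3.14 and 7.25 at T14+RA. The T0 cultures lay above all others, and T7-RA had the lowest mean. The log2 change in the additive model was -2.18 (SE 0.44, adjusted p = 0.000126) at day 7 and -1.50 (SE 0.41, adjusted p = 0.00311) at day 14, the second short of 0.001. That model takes the RA change as equal at both days. For Trpc6 the RA cultures lay above those without RA at day 7 and below them at day 14, without overlap. The fitted RA changes were 1.21 (adjusted p = 0.306) and -1.26 (adjusted p = 0.117), and their difference was -2.47 (adjusted p = 0.192). The day terms are therefore not the changes of the cultures without RA. The day 7 call was lost without T0 replicate 1 or T7-RA replicate 1 or 2 (adjusted p up to 0.00157). Smooth muscle markers fell over the same days (4 of 6 at day 7 and 5 of 6 at day 14), and their part in the result was not tested.

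Clic1 (ENSRNOG00000029682, 20p12) and Clic4 (ENSRNOG00000018109, 5q36), the channel genes with the highest level per kilobase, fell by similar amounts. Clic1 was at 211, 345 and 233 CPM at T0, 183, 158 and 156 at T14-RA and 131, 146 and 141 at T14+RA. Clic4 was at 190.4, 203 and 164 CPM at T0, 139, 109.8 and 129 at T14-RA and 107, 99.0 and 127 at T14+RA. For both genes all day 14 cultures lay below all T0 cultures. The day 14 log2 changes were -0.63 (SE 0.14, adjusted p = 0.000133) and -0.63 (SE 0.14, adjusted p = 0.000254). T0 replicate 2 stood out for Clic1, and without it the log2 change was -0.38 (adjusted p = 0.0246), while the call of Clic4 was lost without T0 replicate 1 or 2 or T14-RA replicate 2 (up to 0.00345).

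**Figure D2:**
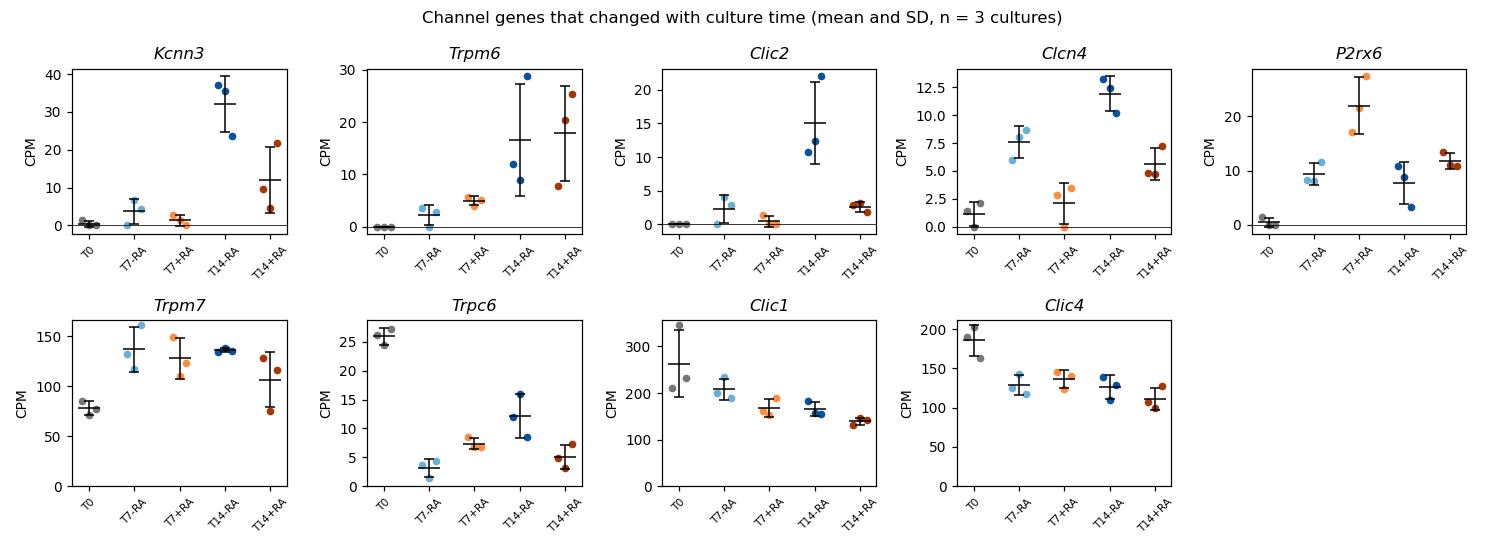
Level in CPM of 9 channel genes called for a day term or for the change from day 7 to day 14, by group (Clcn5, also called at day 7, is plotted with the RA genes). Points are single cultures, the horizontal bar is the mean and the whiskers are the SD (n = 3), and for Kcnn3 and Clic2 the T14-RA cultures stand above all others while for Trpc6 the T0 cultures do.

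Among the 51 genes, 23 passed an adjusted p of 0.05 at day 14, where 35.4% of all genes did, 15 of them higher (17.9% of all genes) and 8 lower (17.5%). At day 7, 11 passed, where 23.1% of all genes did, 7 higher (11.7%) and 4 lower (11.5%). At this level voltage-gated potassium channels passed in both directions. Kcnd1, which carries a fast inactivating A-type current, was higher at both days (1.51 and 1.23 on the log2 scale), and so was Kcnq5, an M-type channel (0.98 and 0.77). The ether-a-go-go channel Kcnh1 was lower at both days (-1.54 and -1.67) and its relative Kcnh2, which carries the rapid delayed rectifier of heart, was lower at day 14 (-1.43). Kcnmb4, an accessory subunit of the large-conductance calcium-activated channel, went from 12.4, 22.5 and 12.6 CPM at T0 to 0, 7.08 and 1.69 at T14-RA and 1.93, 0 and 1.81 at T14+RA, with a day 14 log2 change of -2.55 (SE 0.65, adjusted p = 0.00141). The lysosomal Clcn7, which had the most counts of the ClC genes, had a day 14 log2 change of 0.57 (SE 0.21, adjusted p = 0.0285). Trpv2, a TRP channel of muscle cells, was seen 3 times in all at T0 and had a day 14 log2 change of 2.01 (SE 0.76, adjusted p = 0.0333). Piezo1, with 4661 counts the most counted of the 51, was lower at both days by a small amount (-0.49 and -0.32). It was at 487, 443 and 641 CPM at T0, 399.6, 394 and 311 at T7-RA, 434, 383 and 444 at T14-RA and 486, 457 and 618 at T14+RA, and both day 14 groups overlapped T0. Many of these calls at 0.05 rested on single libraries, since 6 of the 11 at day 7 and 13 of the 23 at day 14 were kept in all 15 fits that left out 1 library. At day 14, Kcnd1 (adjusted p = 0.226) and Kcnh2 (0.0866) were lost without T0 replicate 1, and Kcnq5 without T0 replicate 1 or 2 or T14-RA replicate 1 (up to 0.109). Clcn7 was lost without T0 replicate 2 (log2 change 0.32, adjusted p = 0.25) or T14-RA replicate 1 or 3, and Trpv2 without any 1 of the T0 libraries or T7-RA replicate 1 (up to 0.106). Both were also lost in some alternative scaling, filter, tool or replicate block (adjusted p up to 0.0607 for Clcn7 and 0.0938 for Trpv2). Piezo1 was lost at day 14 without T0 replicate 3 (log2 change -0.15, adjusted p = 0.395) or T14-RA replicate 2, and with library size only. At day 7, Kcnd1 was lost without T0 replicate 1 (0.0963), Piezo1 without T0 replicate 3 (0.0609) and Kcnh1 without T0 replicate 2 or T7-RA replicate 3 (up to 0.0702).

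The second question was which channel genes responded to RA. For the RA term, an average over both days, 3 of 51 genes passed 0.001 against 6.39% of all genes, and all 3 fell: Kcnn1, Clcn5 and Ano6. Over all genes, 3.33% rose and 3.07% fell. None of the 51 rose in edgeR, DESeq2 or limma-voom at that threshold. At an unadjusted p under 0.05 in edgeR, 9 were higher and 14 lower, where 24.8% of all genes passed in either direction. These 3 calls were kept in each of the other scalings, filters and tools and in all 15 fits that left out 1 library. The median log2 change of the 51 genes was -0.05, beside -0.01 for all genes. The summed skeletal muscle markers were also lower with RA, at 1547 to 1870 CPM in T7+RA against 2850 to 3468 in T7-RA, and their part in the results for RA was not tested.

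Kcnn1 (ENSRNOG00000029264, 16p14) had the largest of these falls. It encodes SK1, a small-conductance calcium-activated potassium channel like SK3. Its levels were 16.6, 15.0 and 16.8 CPM at T0, 23.9, 22.8 and 30.5 at T7-RA and 18.0, 19.5 and 15.2 at T14-RA. With RA they were 7.13, 6.71 and 6.86 CPM at T7+RA and 5.79, 6.29 and 1.81 at T14+RA. All 6 RA cultures lay below all 9 cultures without RA, T0 included. The RA term was -1.84 (SE 0.29, adjusted p = 1.78e-06), and the change was -1.86 at day 7 and -1.80 at day 14, a difference of 0.06 (adjusted p = 0.994). The day 14 term of Kcnn1 was 0.13 (SE 0.36, adjusted p = 0.813).

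Clcn5 (ENSRNOG00000002862, Xq12), an endosomal chloride/proton exchanger needed for the uptake of protein in kidney tubules, rose at day 7 and fell with RA. Its levels were 31.7, 13.1 and 33.5 CPM at T0, 63.2, 61.8 and 71.2 at T7-RA and 66.1, 35.4 and 66.0 at T14-RA. With RA they were 34.2, 30.9 and 36.0 CPM at T7+RA and 13.5, 23.6 and 29.0 at T14+RA. Both groups with RA overlapped T0, and at each day they lay below the group without RA. The day 7 term was 1.38 (SE 0.27, adjusted p = 6.19e-05) and the RA term -1.18 (SE 0.19, adjusted p = 2.01e-06). Without T0 replicate 2, the lowest of the T0 cultures, the day 7 adjusted p was 0.0017. Its endosomal relative Clcn4 had an RA term of the same sign (-1.37), and Clcn3, a further member of that branch, one of the opposite sign (0.54, adjusted p = 0.0127). At 0.05 the RA calls of Clcn4 and Clcn3 were lost in 3 and 2 of the 15 fits that left out 1 library (adjusted p up to 0.0707 and 0.0532).

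Ano6 (ENSRNOG00000006995, 7q35) showed the smallest of the 3 changes and the highest counts. Its levels were 223, 188 and 245 CPM at T0, 211, 243 and 224 at T7-RA and 231, 227 and 235 at T14-RA. With RA they were 189.6, 156 and 175 CPM at T7+RA and 173, 121 and 154 at T14+RA. The RA cultures lay below those without RA at each day, and T7+RA came within the range of T0 by 1 culture. The RA term was -0.49 (SE 0.10, adjusted p = 7.79e-05). The 2 other anoctamins did not pass: Ano10 had an RA term of 0.27 (SE 0.15, adjusted p = 0.247) and Ano8 one of -0.42 (SE 0.17, adjusted p = 0.102).

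The windows before the start of Clcn5 and Ano6 are shown because these are the genes called for RA that have one in the RefSeq table, which lists none for Kcnn1. They lie on the plus strand of GRCr8 at chrX:17857010-17857259, the first of 2 listed starts of Clcn5, and at chr7:128812881-128813130 for Ano6. Capitals mark CANNTG, of which Clcn5 has 3 matches and Ano6 has 1, a number to be read beside the 65.54% of all windows that hold at least 1. AGGTCA was not found in either window on either strand, nor in the second listed window of Clcn5.
Clcn5: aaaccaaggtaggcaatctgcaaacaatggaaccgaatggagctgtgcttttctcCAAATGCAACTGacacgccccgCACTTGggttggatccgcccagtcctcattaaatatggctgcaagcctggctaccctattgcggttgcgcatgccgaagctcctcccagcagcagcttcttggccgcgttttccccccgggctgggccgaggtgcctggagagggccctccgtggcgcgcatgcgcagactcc
Ano6: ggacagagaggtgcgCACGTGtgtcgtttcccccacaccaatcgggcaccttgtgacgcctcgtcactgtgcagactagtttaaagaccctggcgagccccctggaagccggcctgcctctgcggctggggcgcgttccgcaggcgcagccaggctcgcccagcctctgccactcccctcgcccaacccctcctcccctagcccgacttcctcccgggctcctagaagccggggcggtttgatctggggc

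Taken day by day in a model of the 5 group means, Kcnn1 alone passed 0.001 at day 7 (1 of 51, against 3.17% of all genes, 1.87% upward and 1.3% downward) with a log2 change of -1.86 (SE 0.39, adjusted p = 0.000484). At day 14 Clcn5 and Ano6 passed (2 of 51, against 4.81%, 2.46% upward and 2.35% downward), with -1.46 (SE 0.28, adjusted p = 7.20e-05) and -0.61 (SE 0.13, adjusted p = 0.000523). These calls at single days rested on few cultures. The call of Kcnn1 at day 7 was lost without any 1 of the 6 day 7 libraries (adjusted p up to 0.00653), that of Clcn5 at day 14 without T14-RA replicate 1 or 3 or T14+RA replicate 1 (up to 0.013), and that of Ano6 at day 14 without T14+RA replicate 2 or 3 or any T14-RA library (up to 0.0192). DESeq2 called none of the 51 genes at either day at 0.001, with 14 and 18 genes at an unadjusted p under 0.05, and limma-voom called Clcn5 at day 14.

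**Figure D3:**
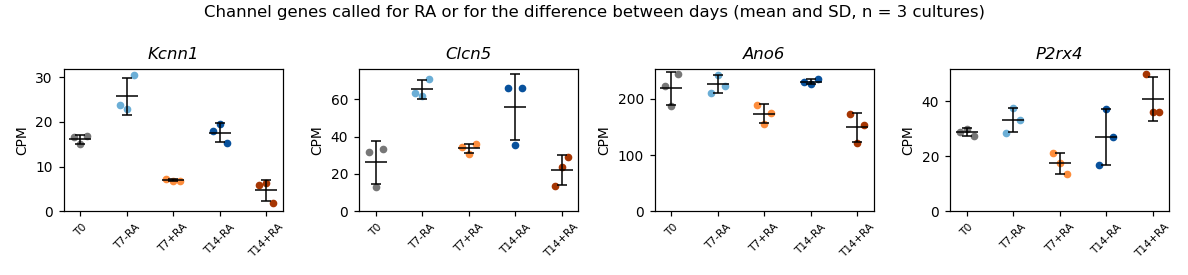
Level in CPM of the 3 channel genes called for RA (Kcnn1, Clcn5, Ano6) and of P2rx4, whose RA change differed between days, by group. Points are single cultures, bars the mean and whiskers the SD (n = 3), and the T7+RA and T14+RA cultures of the first 3 genes lie below those without RA of the same day.

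At an adjusted p of 0.05, 19 of the 51 genes passed for RA, where 14.7% of all genes did, 8 higher (7.4% of all genes) and 11 lower (7.3%). Among the potassium channels, the lower genes were Kcnj8, the pore of vascular and muscle ATP-sensitive channels, with a log2 change of -1.07 (SE 0.28, adjusted p = 0.00389), Kcnq5 (-0.67), Kcnn3, Kcnn1 and the accessory gene Kcnip4 (-2.13), which passed the count filter only through T14-RA, a group without RA, with 15 of its 25 counts. Higher were Kcnd3, an A-type channel, with 0.88 (SE 0.22, adjusted p = 0.00235), Kcnh1 (1.42) and the leak channel Kcnk5 (0.78). Kcnd3 was at 21.5, 16.1 and 21.8 CPM at T7-RA against 32.8, 41.6 and 34.3 at T7+RA, and at 22.8, 14.17 and 13.5 at T14-RA against 28.0, 26.7 and 45.3 at T14+RA, with no overlap at either day. Of the sodium channel genes, Scn2a, a pore gene known from neurons, was lower (-0.87). Trpm4, a cation channel opened by calcium, was lower (-1.17), whereas Trpm3 (1.78) and Piezo1 (0.32) were higher. Day by day, 5 genes passed 0.05 at day 7 (7.41% of all genes), 3 higher (4.13%) and 2 lower (3.28%). At day 14, 11 passed (11.2%), of which Kcnh1 alone was higher (5.42%) and 10 were lower (5.74%), Kcnj8 among them with -1.23 (SE 0.40, adjusted p = 0.0324). When each library in turn was left out, 11 of the 19 calls for RA were kept throughout, as were 2 of the 5 at day 7 and 3 of the 11 at day 14. Of the genes named here for RA, Kcnip4, Kcnk5, Scn2a and Trpm3 were lost in 4, 10, 5 and 3 of the 15 fits (adjusted p up to 0.156), and at day 14 Kcnj8 was lost without T14-RA replicate 1 or T14+RA replicate 2 or 3 (up to 0.272) and Kcnh1 without T14-RA replicate 1 or 2 or T14+RA replicate 3 (up to 0.176).

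**Figure D4:**
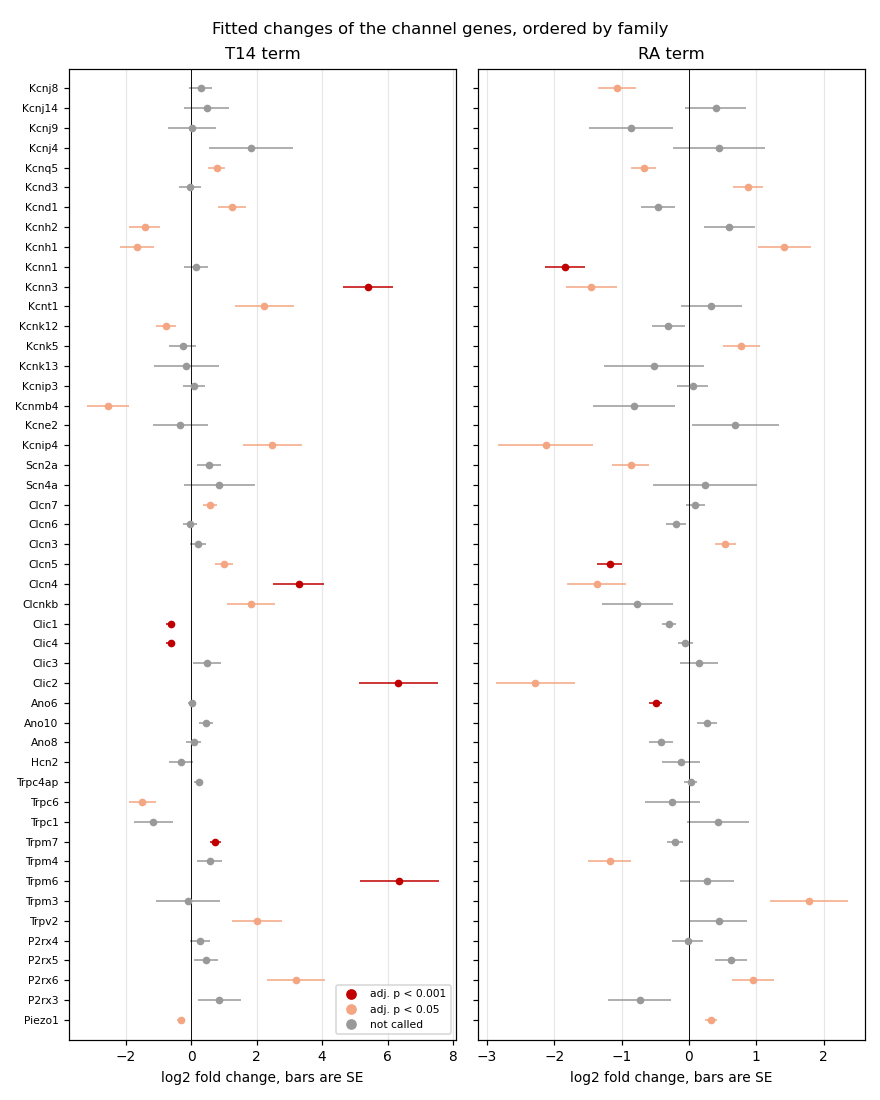
Fitted log2 changes of 48 channel genes for day 14 against day 0 (left) and for RA (right), ordered by family, with bars for the SE. Dark red marks genes past an adjusted p of 0.001 and orange those past 0.05, and at the stricter level the day 14 panel shows 5 genes above and 2 below 0 while the RA panel shows 3 below.

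Whether RA acted alike at both days was tested as the difference between its changes at day 14 and day 7. At an adjusted p of 0.05, 2 of 51 genes passed against 0.743% of all genes (0.285% with a higher and 0.458% with a lower change at day 14). P2rx4 (ENSRNOG00000001300, 12q16), an ATP-gated channel found at the surface and in lysosomes, was among them. Its levels were 28.6, 37.6 and 33.4 CPM at T7-RA, 21.4, 17.5 and 13.7 at T7+RA, 16.8, 37.2 and 27.1 at T14-RA and 50.2, 36.1 and 36.3 at T14+RA. The RA cultures lay below those without RA at day 7, while at day 14 the ranges overlapped. The RA change was -0.89 (SE 0.31, adjusted p = 0.064) at day 7 and 0.69 (SE 0.28, adjusted p = 0.104) at day 14, neither past 0.05, and the difference was 1.59 (SE 0.42, adjusted p = 0.043). This call was lost in 9 of the 15 fits that left out 1 library, with adjusted p up to 0.301, and DESeq2 gave no adjusted p for it.

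**Figure D5:**
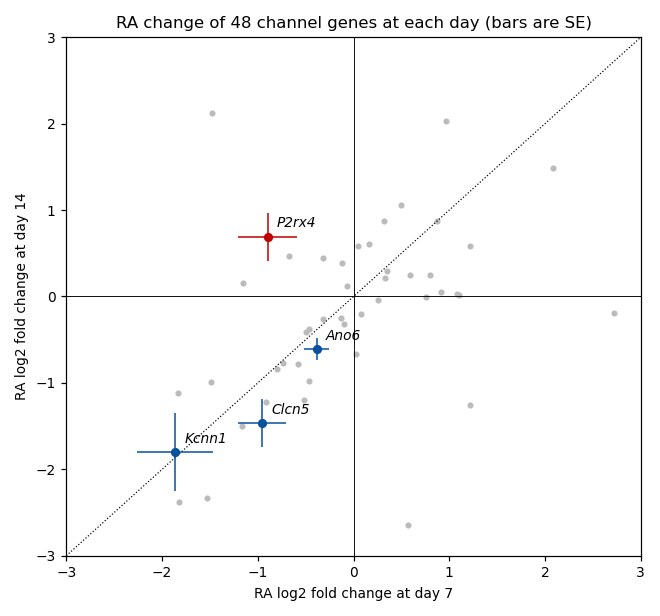
RA change of 48 channel genes on the log2 scale at day 7 (horizontal axis) and day 14 (vertical axis). The dotted line marks equal changes, bars are the SE of the named genes, blue marks the 3 genes called for RA, which lie below 0 at both days, and red marks P2rx4, which lies below 0 at day 7 and above 0 at day 14.

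By family, the inward rectifiers (4 genes), the voltage-gated potassium pores (6), the leak potassium channels (3), the potassium channel accessory genes (4) and the single HCN, TRPV and Piezo genes had no call at 0.001 in any comparison. Of all genes, 8.73% were called at day 7, 17.3% at day 14 and 6.39% for RA, so families this small are not set apart by having no call. Kcnip3 and Hcn2, the most counted of their families, had day 14 log2 changes of 0.09 (adjusted p = 0.868) and -0.32 (0.556). The pacemaker channel Hcn2 ranged from 8.55 to 24.2 CPM within T7+RA alone, wider than the range of its 5 group means. Kcnk12, a leak channel subunit that is silent on its own, had a day 14 log2 change of -0.77 (SE 0.30, adjusted p = 0.04), a call at 0.05 that was lost in 7 of the 15 fits without 1 library (up to 0.258, without T0 replicate 1), with library size only and in DESeq2 (0.102). Within the ClC family Clcn6, an exchanger of late endosomes, had changes of -0.04 for day 14 and -0.19 for RA beside the calls of Clcn5 and Clcn4. Trpc4ap, the name match that is not a channel, had changes of 0.22 and 0.02, with SE of 0.13 and 0.09.

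The other genes that set and use ion gradients were taken as 3 lists. Of 14 listed pumps and cation-chloride cotransporters or exchangers, 10 were in the table. The counts of calls at 0.001 stand beside 17.3% of all genes at day 14 and 6.39% for RA. At day 14, 2 rose and 0 fell: Atp1b3, a sodium pump beta subunit, with a log2 change of 1.01, and Slc12a2, the cotransporter that loads cells with chloride, with 1.12. For RA, 2 rose and 0 fell, Atp1b1, a further pump beta subunit (0.56), among them. Of 38 listed channels outside the families above, 26 were in the table. At day 14, Best1, the bestrophin gene, rose (0.86) and Lrrc8a (-0.85) and Lrrc8d (-1.30), both subunits of the volume-regulated anion channel, fell. For RA, the polycystin channel gene Pkd2 (0.66) and Best1 (0.32) rose and 0 fell. Best1 averaged 1160 CPM at T0, 2128 at T14-RA and 2609 at T14+RA. Piezo1, the most counted of the channel genes above, averaged 524, 420 and 521 CPM in these groups. Whether the reads counted for Best1 came from that gene was not tested, so its changes are not read as those of a channel. Of 26 listed partners of channels, 17 were in the table. At day 14, 3 rose, Fgf11 (1.55), Fgf13 (1.92), whose product binds sodium channels, and Cav3, the caveolin of muscle (0.91), and 1 fell, Fxyd5, a sodium pump regulator (-3.10). For RA, 0 rose and 2 fell: Abcc9, which encodes the sulfonylurea receptor that pairs with the product of Kcnj8 (-0.69, SE 0.14), and Ank3, which encodes an ankyrin that anchors sodium channels (-0.99, SE 0.14).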

How the data were processed

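RNA from 15 cultures was sequenced by the authors (stranded mRNA libraries, paired-end, MiSeq), aligned to rat genome Rnor_6.0 with HISAT2 and counted with featureCounts. The deposited counts are raw whole-number counts per gene after a filter that the file shows as more than 20 summed over the libraries, and the strand setting is not given in the sources used here. Groups came from the labels. No library was dropped, since even the closest replicates differed by more than sampling noise. The T0 libraries stood further apart than those of the other groups. Their chi-square per gene between pairs was 1.96 to 2.77, against 1.07 to 1.86 elsewhere, and the pairs with T0 replicate 2 were the highest (2.32 and 2.77).

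Counts were tested over all 11574 genes with edgeR 4.0.16 (TMM factors, robust quasi-likelihood F test, Benjamini-Hochberg adjustment, R 4.3.3) in an additive model of day 7, day 14 and RA, called at an adjusted p of 0.001 as in the study's formula, which the authors fitted with limma. A model of 5 group means gave RA at each day, and the difference between days was called at 0.05. Two-sided tests were used throughout. The SE of a log2 change is its size divided by the square root of F, which is imprecise for changes near 0, and fitted changes of genes at 0 in a group depend on the prior count. CPM are counts per 1000000 library counts after TMM scaling. Per-kilobase levels use the gene size listed in the file, which the sources do not define. A floor is 3 counts over a group, and counting intervals (95%, exact binomial) cover counting error only. Library totals of 508397 to 1030820 counts limit the precision for genes with few counts. Reads shared by near-identical or overlapping genes could be split by the counting.

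Alternatives were relative log expression factors, library size only, edgeR's filterByExpr, DESeq2 1.42.0, limma-voom (limma 3.58.1), another threshold, a replicate block and leaving out each library. The edgeR step was also run on simulated counts with known changes, as a check of the code, and no result of that run is used here. Named genes were those called, at most 12 per term by p, plus the most counted gene of each family, with further members given as part of a family. Some genes that meet this rule are not reported here, and the figures leave them out, but counts of genes called include them. Channel genes, families, marker lists and the lists of pumps, other channels and partners were chosen with earlier results of these data known. Promoter windows came from RefSeq (GRCr8), where 36 of the 51 symbols matched. The deposited table holds no columns of other samples. Cultures with the same replicate number were not treated as paired, since the sources do not say whether they were grown together. Correlations of same-numbered pairs were low but above those of other pairs (mean 0.018 and at most 0.0991 over 30 pairs, against a mean of -0.0090 and at most 0.0534 over 60 pairs with other numbers). Counting noise keeps such correlations low at this depth, so they cannot exclude pairing.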

Additional observations from a re-analysis of the deposited data

Results flagged for a closer look

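In P2rx4, an ATP-gated channel, the change with RA differed between day 14 and day 7 by a test of that difference (edgeR, Benjamini-Hochberg), by 1.59 on the log2 scale (SE 0.42, adjusted p = 0.043). P2rx4 was lower with RA in 3 of 3 cultures at day 7, and its cultures with and without RA overlapped at day 14. Neither day alone passed 0.05 (adjusted p = 0.064 and 0.104), the call was lost in 9 of the 15 fits that left out 1 library (adjusted p up to 0.301), and DESeq2 gave no adjusted p for it. The 2 days use different cultures. Groups of 3 cultures were not searched for single outlying libraries.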

How the results depend on the processing

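No called gene changed its direction. The median log2 change of the channel genes turned from 0.15 to -0.02 from day 7 to day 14 under filterByExpr, which tests fewer of them, and that for RA from -0.05 to 0.00 without T7+RA replicate 1. Changes near 0 that were not called also turned, for Hcn2, Kcnip3 and Trpc4ap. Of the 20 calls of named genes, 9 were kept in every alternative scaling, filter, tool and replicate block that gave a value, 7 in all 15 fits without 1 library, and 5 in both, namely Kcnn3 at day 14, Kcnn1, Clcn5 and Ano6 for RA, and Clic2 at day 14, which entered the table only through its counts at T14-RA and supports nothing by being kept. At an adjusted p of 0.05 the counts of channel genes called were 11 at day 7 (23.1% of all genes), 23 at day 14 (35.4%) and 6 from day 7 to day 14 (16.2%). They were 19 for RA (14.7%), 5 for RA at day 7 (7.41%) and 11 for RA at day 14 (11.2%). At 0.001 the difference between days gave 0 in edgeR, with 9 at an unadjusted p under 0.05, where 8.35% of all genes passed. The counts that follow are given without the share of all genes. With limma-voom the count was 0 from day 7 to day 14 (15 unadjusted), 0 for RA at day 7 (19 unadjusted) and 1 for RA at day 14. With DESeq2 it was 0 for RA at day 7 (14 unadjusted), 0 for RA at day 14 (18 unadjusted) and 1 for the difference between days. The cause was not tested. Leaving out 1 library gave 2 to 5 calls at day 7 (2 without T0 replicate 1), 3 to 8 at day 14 (4 without T0 replicate 1 and 3 without T0 replicate 2), 2 to 4 from day 7 to day 14, 3 for RA in each case, 0 to 1 for RA at day 7 (0 without any of the day 7 libraries), 0 to 2 for RA at day 14 (0 without T14-RA replicate 1 or 3) and 0 to 2 for the difference between days (0 without T7+RA replicate 3). Library size alone moved the all-gene median log2 change from 0.02 to 0.13 at day 7. The median RA change ranged from -0.14 to 0.00 without 1 library.

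With a replicate block the counts were 5 at day 7, 7 at day 14, 3 from day 7 to day 14, 3 for RA, 1 for RA at day 7, 2 for RA at day 14 and 2 for the difference. Same-numbered libraries had correlations of -0.035 to 0.099, and 6 of 15 libraries correlated best with their own number. Clic2, Clcn4 and Trpv2 gave no value under filterByExpr. Depth limits these results, since the median channel gene had 6 to 14 counts per library.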
